A study of Mus musculus with 9 samples.

Results

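The Hox genes were examined in RNA from mouse colon as markers of position along the gut. All entries whose symbol was Hoxa, Hoxb, Hoxc or Hoxd followed by a number were taken, which gave 39 genes of 55401 entries. Wild-type mice gave 9 libraries of colonic tissue in 3 groups of 3. The berberine group is labelled by treatment with this plant alkaloid alone, and its labels give neither its diet nor whether it received AOM/DSS. The high-fat diet group and the chow group, on ordinary feed, both carry AOM/DSS in their titles, the usual short form of a carcinogen, azoxymethane, followed by the gut irritant dextran sulfate sodium, which together cause colon tumours in inflamed mucosa. Strain, age, the stretch of colon sampled and whether the libraries came from separate animals are not given in the labels, so p-values measure the spread between these libraries only.

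Hox genes encode homeodomain transcription factors and lie in 4 clusters, a to d, on different chromosomes. Within a cluster the genes are numbered by paralogue group, and their order along the chromosome matches the order in which they are used from head to tail. In the gut, central genes of the clusters are used along much of the intestine, while the highest numbers mark the hindgut, where Hoxa13 and Hoxd13 pattern the terminal bowel and Hoxb13 is known as a gene of the distal colon, rectum and prostate.

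Levels are given as deposited FPKM, fragments scaled to the library and per kilobase, which are corrected for gene length and can be compared between genes. The library totals ran from 51961764 to 69007117 estimated counts. Of the 39 Hox genes, 23 averaged 1 FPKM or more across the 9 libraries and were tested among 14506 genes, and 16 were too low. Tests are edgeR's quasi-likelihood test on the estimated counts, with Benjamini-Hochberg adjustment over all genes tested. A gene is said to have risen, fallen or changed when its adjusted p was under 0.05. In whole tissue, fewer cells of a type and less RNA per cell cannot be told apart.

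The tissue label was checked against marker genes. The intestinal homeobox gene Cdx1 was at 140, 140 and 155 FPKM in the berberine libraries, 50.9, 70.0 and 63.8 FPKM in the high-fat diet libraries and 142, 138 and 152 FPKM in the chow libraries. Of 8 small intestinal genes, Lct, Sis and Gata4 stayed at or below 0.162 FPKM in all 9 libraries and Apoa4 at or below 0.814 FPKM. The other 4 were detected: the ileal bile acid genes Slc10a2, at 2.06 to 20.1 FPKM, and Fabp6, at 0.289 to 8.90 FPKM, Pdx1 at up to 2.18 FPKM, and Onecut2 at 2.73, 2.52 and 1.56 FPKM in the high-fat diet libraries and at or below 0.0335 FPKM in the other 6. Several libraries stood apart for genes of other regions or tissues. Osr2, a gene of the proximal colon, was at 11.5 FPKM in chow replicate 2 and at 0.561 FPKM or less in the other 8 libraries. Summed striated muscle genes stood at 506 FPKM in chow replicate 3 and at 20.3 FPKM or less elsewhere. Summed squamous genes stood at 152 FPKM in chow replicate 1, and summed adipocyte genes at 506 and 378 FPKM in berberine replicates 1 and 2 against 7.02 FPKM in berberine replicate 3. Values by library or without such a library are given beside the Hox results that it touches most.

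By mean over the 9 libraries, the highest gene of the Hoxa, Hoxb and Hoxd clusters was the one of paralogue group 13, although in the high-fat diet group Hoxa13 lay below Hoxa5, Hoxa7, Hoxa9 and Hoxa10. The 3 highest Hox genes by mean over the 9 libraries were Hoxb13 (ENSMUSG00000049604, GRCm38 chromosome 11, 96194316 to 96197447), Hoxd13 (ENSMUSG00000001819, chromosome 2, 74668310 to 74671599) and Hoxb9. Hoxb9, the posterior gene next before Hoxb13 in its cluster, was at 17.01, 16.5 and 17.8 FPKM in the berberine libraries, 20.1, 19.5 and 21.3 FPKM in the high-fat diet libraries and 14.5, 26.9 and 20.7 FPKM in the chow libraries. The posterior genes, paralogue groups 9 to 13, passed the filter in 11 of 16 cases. The central genes, groups 4 to 8, passed in 9 of 15 cases and the anterior genes, groups 1 to 3, in 3 of 8. Among the central genes, Hoxb8 and Hoxd8 passed only with chow replicate 2 counted, at 10.6 and 2.59 FPKM in that library and means of 1.57 and 1.13 FPKM. By cluster, 9 of 11 Hoxa genes, 8 of 10 Hoxb genes, 6 of 9 Hoxd genes and 0 of 9 Hoxc genes were tested.

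The Hoxc cluster on chromosome 15 held little RNA in any library. Its highest value was 1.08 FPKM, for Hoxc10 in chow replicate 3, the library with striated muscle genes, and the part of that tissue in the value was not tested. Hoxc13 had a count of 0 in all 9 libraries. If 4 deposited counts make 1 fragment, a count of 0 allows up to 12 counts in a library, or about 3 fragments, for counting error only. The other 5 genes of the cluster, Hoxc5, Hoxc6, Hoxc8, Hoxc9 and Hoxc12, stayed at or below 0.133 FPKM in all 9 libraries. Hoxc11 was at 0 in all 3 berberine and all 3 high-fat diet libraries and at 0.189, 0.173 and 0.374 FPKM in the chow libraries. Hoxc4, the most anterior gene of the cluster, was at 0.171, 0.183 and 0.677 FPKM in the berberine libraries, 0.0481, 0 and 0 FPKM in the high-fat diet libraries and 0.139, 0.247 and 0.347 FPKM in the chow libraries. Of the 7 untested genes outside the Hoxc cluster, Hoxa4, Hoxb2 and Hoxd4 lay just under the filter, with means of 0.91, 0.851 and 0.907 FPKM. Hoxb2, a hindbrain gene, was at 0.960, 0.566 and 0.930 FPKM in the berberine libraries, 0.191, 0.0785 and 0.907 FPKM in the high-fat diet libraries and 1.20, 1.34 and 1.49 FPKM in the chow libraries. Hoxb1, Hoxd1 and Hoxd3 stayed at or below 0.967 FPKM, and the highest of these values, that of Hoxd3, was in chow replicate 2.

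**Figure D1:**
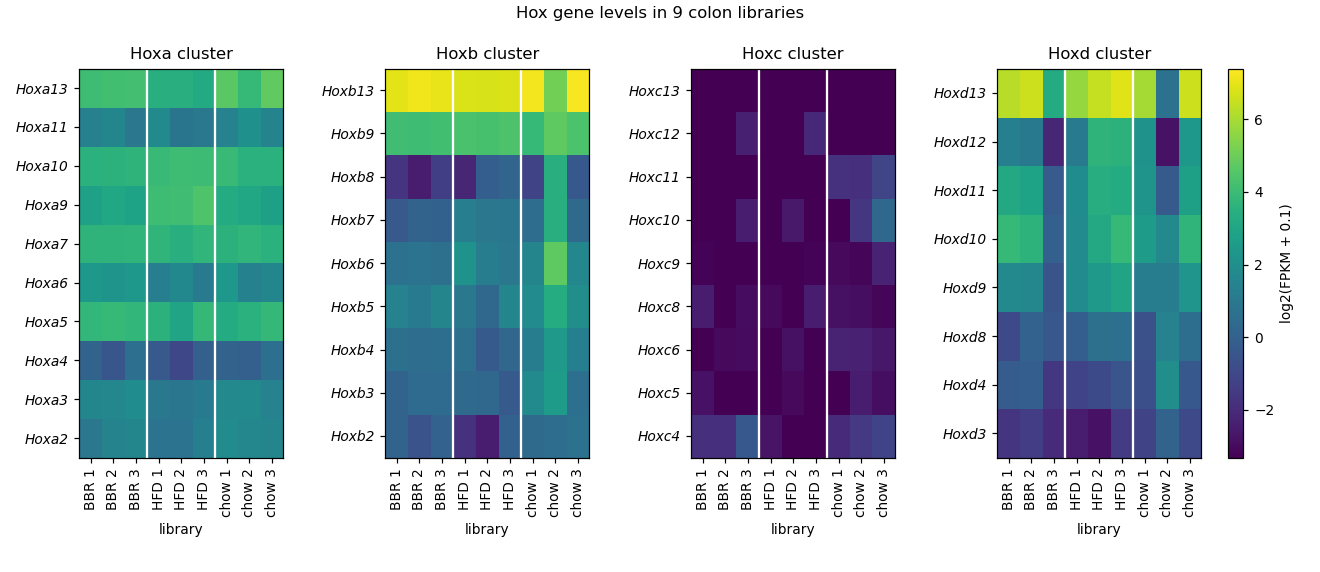
Levels of the Hox genes of paralogue groups 2 to 13 as log2(FPKM + 0.1), 1 panel per cluster, with genes down the page from the highest to the lowest paralogue number and the 9 libraries across (BBR, berberine; HFD, high-fat diet). The Hoxc cluster is dark throughout, Hoxb13 is the brightest gene in all libraries but high-fat diet replicate 3, where Hoxd13 is (116 FPKM), and is dimmest in chow replicate 2 (34.8 FPKM), and Hoxd9 to Hoxd13 are darker in berberine replicate 3 than in the other berberine libraries.

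Summed over its cluster, Hoxa stood at 77.7 ± 2.59 FPKM in the berberine group, 77.5 ± 6.05 FPKM in the high-fat diet group and 81.6 ± 7.10 FPKM in the chow group (SD, n = 3 each). Hoxb stood at 158 ± 9.82 FPKM with berberine, 141 ± 4.52 FPKM with high-fat diet and 167 ± 31.1 FPKM with chow. Hoxd varied within every group, at 107, 123 and 13.1 FPKM in the berberine libraries, 66.1, 125 and 162 FPKM in the high-fat diet libraries and 80.6, 15.1 and 127 FPKM in the chow libraries. The low Hoxd libraries were berberine replicate 3 and chow replicate 2.

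The genes on which the results turn have start regions of different base composition. The 250 bases before the RefSeq start (GRCm38.p6) are shown for Hoxa9 and Hoxa13, which moved in opposite directions under high-fat diet, and for Hoxb8 and Hoxd13, a central and a posterior gene that stood far apart from the rest in single libraries. Sequences run 5′ to 3′ on the gene's strand, with each CG dinucleotide in capitals.
Hoxa9, chr6:52227371-52227620, minus strand: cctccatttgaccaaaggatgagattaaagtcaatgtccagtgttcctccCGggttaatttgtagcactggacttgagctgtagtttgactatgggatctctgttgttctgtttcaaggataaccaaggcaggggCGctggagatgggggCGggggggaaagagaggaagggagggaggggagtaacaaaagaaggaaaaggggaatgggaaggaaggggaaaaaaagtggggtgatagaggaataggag
Hoxa13, chr6:52260881-52261130, minus strand: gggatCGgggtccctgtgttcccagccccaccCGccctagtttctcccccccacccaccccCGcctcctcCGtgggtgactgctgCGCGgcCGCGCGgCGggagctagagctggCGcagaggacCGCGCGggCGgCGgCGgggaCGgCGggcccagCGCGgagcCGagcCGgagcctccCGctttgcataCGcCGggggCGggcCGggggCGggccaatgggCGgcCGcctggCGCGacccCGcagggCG
Hoxb8, chr11:96281655-96281904, plus strand: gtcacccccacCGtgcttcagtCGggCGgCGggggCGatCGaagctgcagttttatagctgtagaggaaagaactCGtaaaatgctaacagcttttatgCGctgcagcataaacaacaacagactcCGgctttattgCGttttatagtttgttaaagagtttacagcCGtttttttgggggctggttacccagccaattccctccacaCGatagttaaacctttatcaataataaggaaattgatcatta
Hoxd13, chr2:74667975-74668224, plus strand: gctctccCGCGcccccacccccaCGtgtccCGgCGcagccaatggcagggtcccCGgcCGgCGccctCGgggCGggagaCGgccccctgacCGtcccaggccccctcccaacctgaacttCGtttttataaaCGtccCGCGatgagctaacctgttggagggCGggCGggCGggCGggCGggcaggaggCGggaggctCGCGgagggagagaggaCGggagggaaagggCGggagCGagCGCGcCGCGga
The Hoxa9 stretch holds 3 CG pairs, the Hoxa13 stretch 35, the Hoxb8 stretch 12 and the Hoxd13 stretch 31. The Hoxa9 stretch lies inside the deposited Hoxa9 interval, 52223100 to 52231089, so it need not precede the start of the RNA that was counted. The table held 24 such stretches for 22 Hox genes. Their median was 12.5 CG pairs, against 6 over all 32851 stretches, and 15 of the 24 held at least 10, against 37.8% of all stretches. These counts are a description of the letters and were not related to the levels.

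Hoxb13 and its neighbours placed 1 library apart from the rest. Hoxb13 was at 123, 144 and 131 FPKM in the berberine libraries, 111, 109 and 113 FPKM in the high-fat diet libraries and 147, 34.8 and 157 FPKM in the chow libraries. Chow replicate 2 was thus the lowest of the 9 for the most distal Hoxb gene. The central genes of the same cluster showed the opposite order. Hoxb6 was at 1.54, 1.61 and 1.48 FPKM in the berberine libraries, 4.29, 2.16 and 1.82 FPKM in the high-fat diet libraries and 2.88, 26.7 and 3.04 FPKM in the chow libraries. Hoxb8, best known from blood and spinal cord development, was at 0.208, 0.0773 and 0.296 FPKM with berberine, 0.124, 0.834 and 1.014 FPKM with high-fat diet and 0.361, 10.6 and 0.679 FPKM with chow. For both genes chow replicate 2 was the highest of the 9 libraries. Hoxb13 exceeded Hoxb6 by 1.303-fold in chow replicate 2 and by 25.9-fold to 89.5-fold in the other 8 libraries.

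The Hoxd cluster split at another point. Hoxd4 was at 0.765, 0.817 and 0.233 FPKM in the berberine libraries, 0.342, 0.438 and 0.607 FPKM in the high-fat diet libraries and 0.520, 3.78 and 0.664 FPKM in the chow libraries. Hoxd13 was at 76.4, 96.5 and 9.71 FPKM with berberine, 52.1, 86.6 and 116 FPKM with high-fat diet and 62.1, 1.51 and 95.2 FPKM with chow. Chow replicate 2 was therefore highest for Hoxd4 and lowest for Hoxd13. Hoxd12, a limb gene that lies beside Hoxd13, was at 2.37, 1.89 and 0.124 FPKM with berberine, 2.01, 12.6 and 11.9 FPKM with high-fat diet and 4.38, 0.0457 and 5.19 FPKM with chow. Berberine replicate 3 and chow replicate 2 were the 2 lowest libraries for Hoxd12 and for Hoxd13.

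Berberine replicate 3 differed from chow replicate 2 in its other clusters. Hoxd10, known from spinal motor neurons and limbs, was at 14.5, 11.996 and 0.889 FPKM in the berberine libraries, 3.54, 8.66 and 14.5 FPKM in the high-fat diet libraries and 5.92, 3.201 and 12.7 FPKM in the chow libraries. Hoxd11 was at 8.70, 7.45 and 0.739 FPKM with berberine, 3.65, 10.1 and 9.61 FPKM with high-fat diet and 4.55, 0.711 and 6.66 FPKM with chow. Hoxd9 was at 3.23, 3.04 and 0.585 FPKM with berberine, 3.53, 5.24 and 7.66 FPKM with high-fat diet and 2.23, 2.22 and 4.68 FPKM with chow. Berberine replicate 3 was the lowest of the 9 libraries for Hoxd9 and Hoxd10, yet its Hoxb13 and Hoxb6 lay within the range of the other berberine libraries or next to it, and its Hoxa13 was the highest of the 3. The ratio of Hoxd13 to Hoxb13 was 0.0742 there, 0.0435 in chow replicate 2, and between 0.423 and 1.03 in the other 7 libraries. The proximal gene Osr2 was at 0.116 FPKM in berberine replicate 3, and Cyp2c55, a proximal colon cytochrome P450, was at 16.8, 26.9 and 28.2 FPKM in the berberine libraries, 2.72, 1.18 and 1.51 FPKM in the high-fat diet libraries and 363, 1390 and 150 FPKM in the chow libraries, so that it was high in all 3 chow libraries and highest in replicate 2. Mptx1, the third proximal gene listed, was at 10.7 FPKM in berberine replicate 3, above 0.352 and 0.493 FPKM in berberine replicates 1 and 2, and at 340 FPKM in chow replicate 2. The sum of the 3 proximal genes was 38.96 FPKM in berberine replicate 3, the highest of its group, with 17.3 and 27.4 FPKM in the other berberine libraries. It was 59.6, 7.89 and 2.76 FPKM in the high-fat diet libraries and 384, 1742 and 155 FPKM in the chow libraries, so berberine replicate 3 did not stand apart in it. Low adipocyte genes set berberine replicate 3 apart from the other 2 berberine libraries as well, and their part in the Hoxd levels was not tested. Hoxd10 and Hoxd11 overlap an entry named Gm28309 on the same strand, so their reads could have been shared with it.

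**Figure D2:**
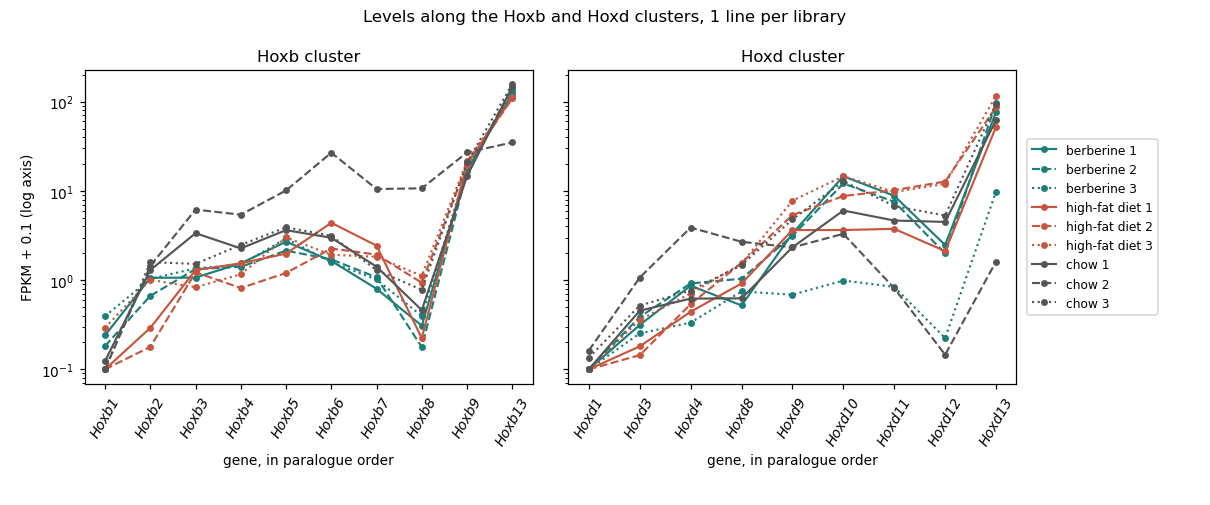
FPKM + 0.1 on a log axis for each gene of the Hoxb cluster (left) and the Hoxd cluster (right) in paralogue order, 1 line per library, coloured by group and with line style by replicate number. Chow replicate 2 runs above the other lines from Hoxb3 to Hoxb8 and ends below them at Hoxb13, and berberine replicate 3 and chow replicate 2 run below the others at Hoxd12 and Hoxd13.

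The share of all Hox FPKM held by paralogue groups 10 to 13 summarised these profiles. It was 77.4%, 79.4% and 69.6% in the berberine libraries, 70.4%, 76.7% and 74.9% in the high-fat diet libraries and 77.5%, 32.0% and 78.95% in the chow libraries. The ranges of the groups overlapped, and the 1 low value was that of chow replicate 2. The chow mean of 62.8% stood at 78.3% without that library. Hoxb13 alone held 15.7% of Hox FPKM in chow replicate 2 and between 28.9% and 51.99% in the other libraries.

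**Figure D3:**
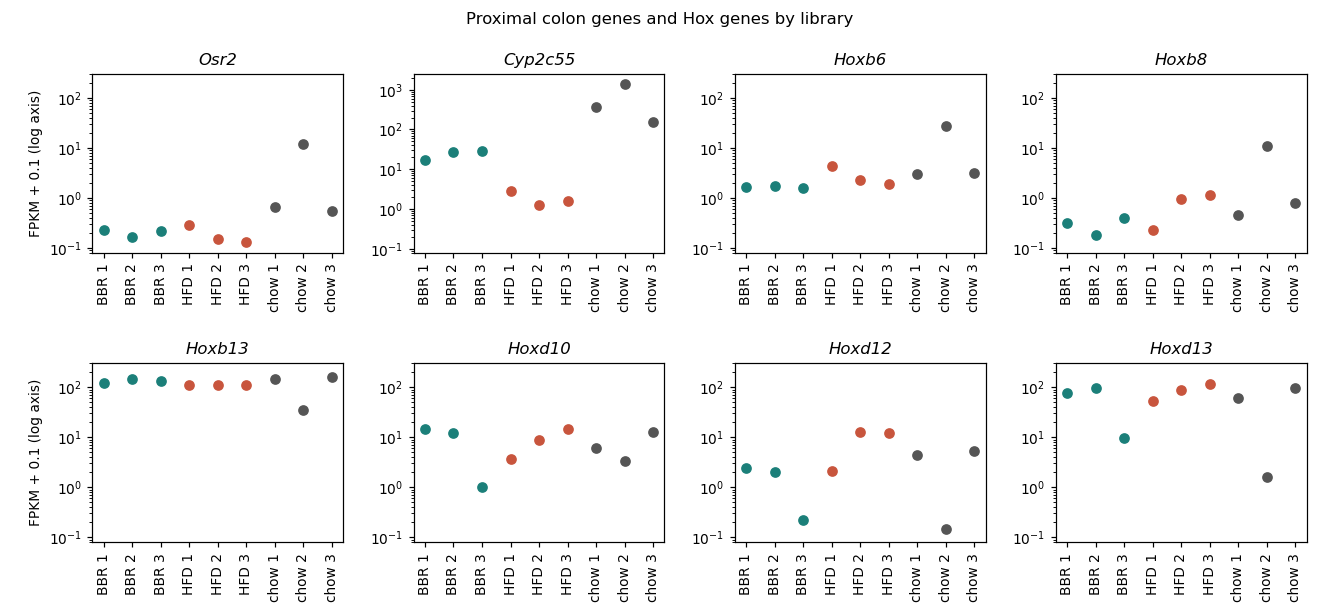
FPKM + 0.1 on a log axis for the proximal colon genes Osr2 and Cyp2c55 and for 6 Hox genes, 1 point per library (BBR, berberine; HFD, high-fat diet). Chow replicate 2 is highest for Osr2, Cyp2c55, Hoxb6 and Hoxb8 and lowest for Hoxb13, Hoxd12 and Hoxd13, while berberine replicate 3 is the lowest berberine library in each Hoxd panel.

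High-fat diet was compared with chow to ask how the diet altered the AOM/DSS colon. Within the Hoxa cluster Hoxa9 rose and Hoxa13 and Hoxa3 fell, and within the Hoxb cluster Hoxb3, Hoxb4 and Hoxb5 fell. Of the 23 tested Hox genes 1 rose and 5 fell, or 26.1%, where 31.8% of all tested genes changed (15.2% higher and 16.6% lower), so the share of Hox genes called was not above the background. The 23 had a median log2 fold change of -0.42, which leaving out chow replicate 2 moved to -0.15, against 0.0015 over all genes in the full set, and in 8 of the 23 the groups did not overlap, where 46.6% of all genes did not.

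Hoxa13, which patterns the hindgut and genital tract (ENSMUSG00000038203, chromosome 6, 52257694 to 52260880), was at 10.4, 10.5 and 9.43 FPKM in the high-fat diet libraries, against 25.4, 14.6 and 27.1 FPKM in the chow libraries. All 3 high-fat diet libraries lay below all 3 chow libraries, with a log2 fold change of -1.26 ± 0.19 (SE, edgeR adjusted p = 0.0022). Hoxa9, a regulator of blood progenitors and of the posterior body (ENSMUSG00000038227, chromosome 6, 52223100 to 52231089), was at 16.6, 17.01 and 21.6 FPKM with high-fat diet, against 9.50, 8.46 and 6.80 FPKM with chow. It rose by 1.04 ± 0.17 on the log2 scale with no overlap between the groups (edgeR adjusted p = 0.00319). Hoxa13 exceeded Hoxa9 in every chow library, by 2.67-fold, 1.72-fold and 3.98-fold, whereas under high-fat diet the ratio of Hoxa13 to Hoxa9 was 0.63, 0.616 and 0.437. Hoxa10, which lies next to Hoxa9, was at 15.0, 16.8 and 16.2 FPKM with high-fat diet, against 15.0, 11.6 and 11.5 FPKM with chow, and was not called (edgeR adjusted p = 0.238). Hoxa11, between Hoxa10 and Hoxa13, had a log2 fold change of -0.57 ± 0.34 and was not called either (edgeR adjusted p = 0.246).

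Hoxa3, a gene of the pharyngeal region, was at 1.88, 1.73 and 2.12 FPKM with high-fat diet, against 3.24, 3.40 and 2.56 FPKM with chow. It fell by 0.81 ± 0.19 on the log2 scale (edgeR adjusted p = 0.0139). The deposited interval of Hoxa3 spans Hoxa4, Hoxa5 and Hoxa6 on the same strand, so reads could have been shared between these entries. Hoxa5, a gene of gut and lung mesenchyme, and Hoxa7 had log2 fold changes of -0.20 ± 0.24 and -0.13 ± 0.14 and were not called. Hoxa2, which patterns the branchial arches, was at 1.60, 1.62 and 2.37 FPKM with high-fat diet, against 3.56, 3.04 and 2.85 FPKM with chow, and missed the threshold (log2 fold change -0.87 ± 0.29, edgeR adjusted p = 0.0504). It was called lower by DESeq2, by limma and in 4 of the other edgeR settings. The calls of Hoxa3, Hoxa9 and Hoxa13 held in all 20 alternative settings.

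The falls in the Hoxb cluster depended more on chow replicate 2. Hoxb3 was at 1.19, 1.12 and 0.732 FPKM with high-fat diet, against 3.25, 6.07 and 1.42 FPKM with chow, and fell by 1.97 ± 0.49 on the log2 scale (edgeR adjusted p = 0.0166). Hoxb4, used in blood stem cells, was at 1.44, 0.715 and 1.06 FPKM with high-fat diet, against 2.17, 5.31 and 2.38 FPKM with chow, and fell by 1.76 ± 0.43 (edgeR adjusted p = 0.0149). Hoxb5, which acts in enteric neural crest cells, was at 1.88, 1.10 and 2.91 FPKM with high-fat diet, against 3.53, 9.997 and 3.81 FPKM with chow, and fell by 1.69 ± 0.51 (edgeR adjusted p = 0.0346). The groups did not overlap for any of these genes, and chow replicate 2 was the highest library each time. Without chow replicate 2 the log2 fold changes were -1.28 for Hoxb3 (edgeR adjusted p = 0.0435), -1.16 for Hoxb4 (edgeR adjusted p = 0.035) and -0.98 for Hoxb5, which lost its call (edgeR adjusted p = 0.109). Hoxb3 lost its call without high-fat diet replicate 3 (edgeR adjusted p = 0.054). Marker genes of other cell types were read in the same comparison, in which 31.8% of all tested genes changed. Of 9 listed enteric neuron and glia genes 6 were tested, of which 3 fell, Uchl1 and Snap25 among them, and 0 rose. The 9 listed summed to between 8.53 and 24.4 FPKM with high-fat diet, against 33.3 to 49.6 FPKM with chow. Of the 10 smooth muscle genes 5 fell and 0 rose. They summed to 580, 892 and 2590 FPKM in the high-fat diet libraries, against 4149, 2825 and 3745 FPKM in the chow libraries. Of 8 leukocyte genes 7 were tested, of which 5 fell and 0 rose. All 8 summed to between 42.5 and 70.5 FPKM with high-fat diet, against 77.8 to 128 FPKM with chow. The highest of them was Cd79a, with means of 32.5 FPKM with high-fat diet and 68.8 FPKM with chow. Csf1r, Itgax and Itgam did not fall, with means of 7.25, 4.17 and 1.18 FPKM with high-fat diet, against 7.15, 2.57 and 0.814 FPKM with chow. Of 10 striated muscle genes 7 were tested, of which 6 fell and 0 rose. The 10 listed summed to between 4.53 and 9.32 FPKM with high-fat diet, against 20.3, 12.04 and 506 FPKM in the chow libraries. Myh4, Tnnc2, Actn3 and Myoz1 passed the filter only through chow replicate 3, at 97.3, 103, 21.6 and 13.7 FPKM there and at or below 0.554 FPKM elsewhere. This count therefore rests largely on that library, and DESeq2 called 2 of the 7. Of 11 squamous genes 8 were tested and 2 rose, Krt15 and Dsg3. Dsg3 passed the filter only through the high-fat diet libraries, at 1.61 to 5.10 FPKM there and at or below 0.744 FPKM elsewhere. All 11 squamous genes together summed to between 54.4 and 96.1 FPKM with high-fat diet, against 2.22 to 152 FPKM with chow. The part of these cells in the Hox results was not tested for any of these lists.

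Hoxb13 itself was not called with all libraries (log2 fold change -0.12 ± 0.43, edgeR adjusted p = 0.857). Without chow replicate 2 its log2 fold change was -0.54 and it was called lower (edgeR adjusted p = 0.0177). Hoxd13 had a log2 fold change of 0.60 ± 1.14, or 0.025 without chow replicate 2, and Hoxd12 one of 1.38 ± 1.35, or 0.80 without it, none called, with chow replicate 2 at 1.51 FPKM for Hoxd13 and 0.0457 FPKM for Hoxd12. Of the 6 tested Hoxd genes 0 were called in any of the 3 comparisons by edgeR or by DESeq2, and 0 had an unadjusted p under 0.05 in edgeR.

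**Figure D4:**
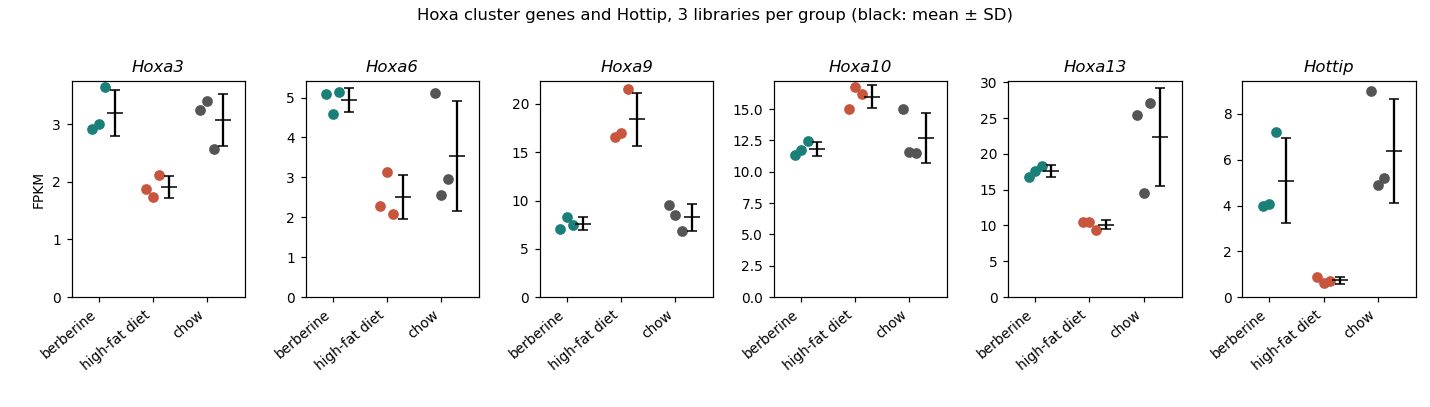
FPKM of Hoxa3, Hoxa6, Hoxa9, Hoxa10, Hoxa13 and the neighbouring noncoding RNA Hottip, 1 point per library in the berberine, high-fat diet and chow groups, with mean ± SD in black and axes from 0. High-fat diet libraries lie above all others for Hoxa9 (16.6 to 21.6 FPKM) and below all others for Hoxa3, Hoxa13 and Hottip.

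The berberine group was next set against the high-fat diet group. Both comparisons use the same high-fat diet libraries, so their values are not independent. Hoxa13, Hoxa3 and Hoxa6 rose and Hoxa9 fell. Of the 23 tested Hox genes these 4, or 17.4%, changed, where 30.7% of all genes did (15.8% higher and 14.9% lower), again a share not above the background. The median log2 fold change was 0.10, against -0.0069 over all genes, and in 10 of the 23 the groups did not overlap, where 51.5% of all genes did not. Marker genes of other cell types differed as well. Of 7 tested leukocyte genes 5 rose and 0 fell, and the 8 listed summed to between 122 and 219 FPKM with berberine, against 42.5 to 70.5 FPKM with high-fat diet. Cd79a was the highest of the 8, with means of 121 FPKM with berberine and 32.5 FPKM with high-fat diet, while Itgax stood at 4.35 and 4.17 FPKM. Of 7 tested adipocyte genes 5 rose and 0 fell, with sums of 506, 378 and 7.02 FPKM in the berberine libraries, against 4.27 to 17.5 FPKM with high-fat diet. Berberine replicate 3 thus lay within the high-fat diet range, and this count rests on berberine replicates 1 and 2. Plin1, at 8.03 and 7.79 FPKM there, and Retn, at 12.2 and 6.67 FPKM, passed the filter only through those libraries. Of 8 tested squamous genes 2 fell and 0 rose. One of the 8 tested, Dsg3, passed the filter only through the high-fat diet libraries. The 11 listed squamous genes summed to between 4.35 and 11.5 FPKM with berberine, against 54.4 to 96.1 FPKM with high-fat diet. The part of these cells in the Hox results was not tested.

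Hoxa13 was at 16.7, 17.6 and 18.3 FPKM in the berberine libraries, against 10.4, 10.5 and 9.43 FPKM in the high-fat diet libraries, and rose by 0.90 ± 0.19 on the log2 scale (edgeR adjusted p = 0.00916). Hoxa9 was at 7.01, 8.33 and 7.45 FPKM with berberine, against 16.6, 17.01 and 21.6 FPKM with high-fat diet, and fell by 1.18 ± 0.18 (edgeR adjusted p = 0.00186). Hoxa3 was at 2.92, 3.00 and 3.64 FPKM with berberine, against 1.88, 1.73 and 2.12 FPKM with high-fat diet, and rose by 0.84 ± 0.19 (edgeR adjusted p = 0.0123). No berberine library overlapped a high-fat diet library for these genes. Hoxa6, a central gene within the Hoxa3 interval, was at 5.10, 4.59 and 5.13 FPKM with berberine, against 2.29, 3.13 and 2.09 FPKM with high-fat diet, and rose by 1.08 ± 0.30 (edgeR adjusted p = 0.0276). Its call was lost in 7 of 20 alternative settings, among them without berberine replicate 1, 2 or 3 and without high-fat diet replicate 1 or 3 (edgeR adjusted p from 0.0602 to 0.0814). Hoxb13 was higher in each berberine library than in each high-fat diet library but had a log2 fold change of 0.35 ± 0.43 and was not called (edgeR adjusted p = 0.559). It passed without chow replicate 2, which enters the shared estimate of spread (edgeR adjusted p = 0.0463).

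Berberine was last compared with chow. By edgeR 0 of the 23 tested Hox genes changed, where 0.0483% of all genes, or 7, did (0.0414% higher and 0.00689% lower). DESeq2 called 1 Hox gene, Hoxb3 (adjusted p = 0.032), and 378 genes in all. In 6 of the 23 the groups did not overlap, where 17.2% of all genes did not. They were the neighbours Hoxb3, Hoxb4, Hoxb5, Hoxb6, Hoxb7 and Hoxb8. The same 6 had an unadjusted p under 0.05 in edgeR, and the share of all genes under that threshold was not taken. In each of them every berberine library lay below every chow library. Hoxb7, a gene with a known part in kidney ducts, was at 0.699, 0.975 and 0.915 FPKM with berberine, against 1.31, 10.4 and 1.19 FPKM with chow, with a log2 fold change of -2.37 ± 0.82 (edgeR adjusted p = 0.383). Hoxb8, which passed the filter only with chow replicate 2 counted, had the largest, at -4.39 ± 1.42 (edgeR adjusted p = 0.365). Chow replicate 2 was the highest library for all 6, and without it the log2 fold changes were -1.40 for Hoxb8, -0.93 for Hoxb6 and -0.51 for Hoxb7, each still negative and not called (edgeR adjusted p from 0.483 to 0.63). Hoxa13 stood at 17.6 ± 0.82 FPKM with berberine and 22.3 ± 6.78 FPKM with chow (SD, n = 3 each), with a log2 fold change of -0.36 ± 0.19 (edgeR adjusted p = 0.531), and Hoxa9 at 7.60 ± 0.67 FPKM with berberine and 8.25 ± 1.36 FPKM with chow (edgeR adjusted p = 0.8).

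**Figure D5:**
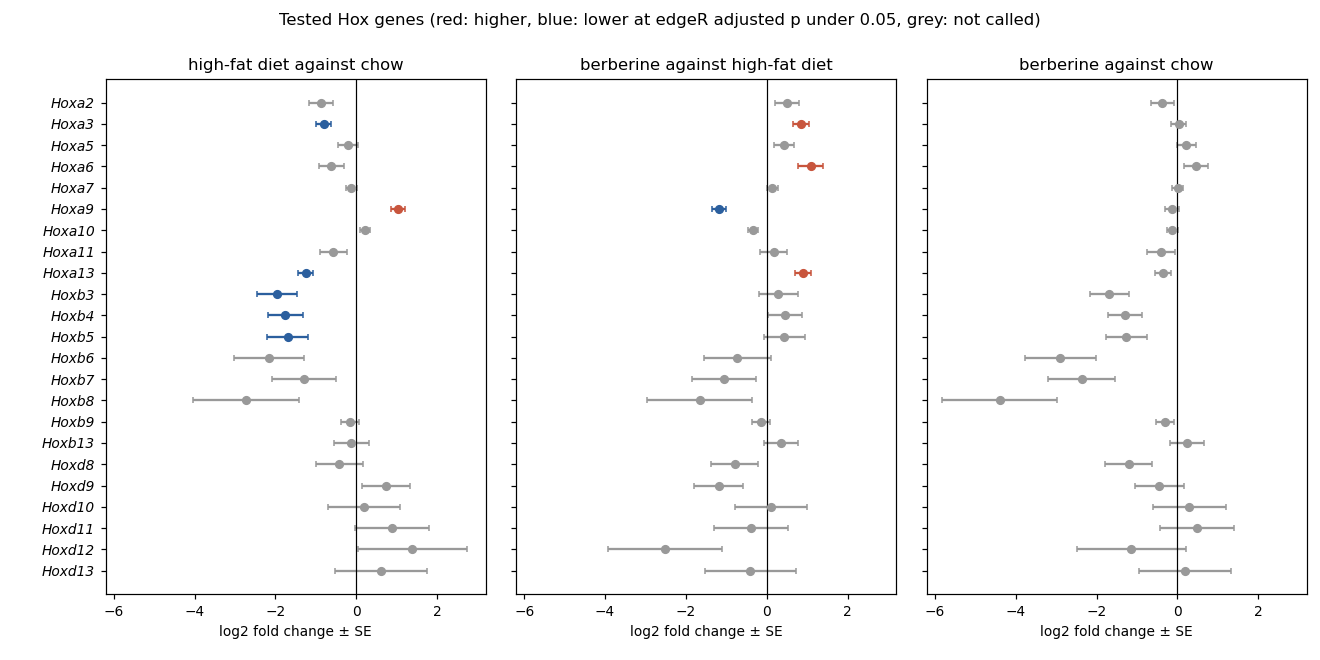
Log2 fold changes ± SE (edgeR) of the 23 tested Hox genes, from Hoxa2 at the top to Hoxd13 at the bottom, in the 3 comparisons. Hoxa9 and Hoxa13 stand on opposite sides of 0 with small errors in the first and middle panels, the Hoxd genes have wide errors in each, and all points of berberine against chow are grey, with Hoxb3 to Hoxb8 to the left of 0.

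Transcripts around the clusters were read from lists of genes grouped by known place or role. These lists were chosen with earlier results of these data known. Of 11 noncoding RNAs of the clusters 5 were tested, and under high-fat diet 3 fell and 0 rose, where 16.6% of all genes fell and 15.2% rose, with a median log2 fold change of -1.29. Hottip, transcribed from the Hoxa13 end of the cluster and known in human cells to keep nearby HOXA genes active, was at 0.874, 0.600 and 0.705 FPKM with high-fat diet, against 8.999, 4.91 and 5.22 FPKM with chow. It fell by 3.24 ± 0.36 on the log2 scale (edgeR adjusted p = 0.000503). Hoxa11os, read from the strand opposite to Hoxa11, was at 10.6, 14.7 and 17.7 FPKM with high-fat diet, against 37.5, 21.7 and 52.5 FPKM with chow, and fell by 1.48 ± 0.32 (edgeR adjusted p = 0.00862). Hoxaas3 fell by 1.13 ± 0.36 (edgeR adjusted p = 0.0403). With berberine against high-fat diet 2 of the 5 rose and 0 fell, where 15.8% of all genes rose and 14.9% fell. Hottip was at 3.97, 4.05 and 7.22 FPKM in the berberine libraries and rose by 2.91 ± 0.35 (edgeR adjusted p = 0.000734), and Hoxa11os rose by 1.297 ± 0.31 (edgeR adjusted p = 0.0152). The libraries were made with a strand-marking step, but whether counting used strand is not given in the sources used here. Reads of overlapping genes on opposite strands, such as Hoxa11 and Hoxa11os, may therefore not be separated.

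Of 11 listed genes flanking the clusters 8 were tested, and under high-fat diet 2 rose and 1 fell, a share close to the 31.8% of all genes that changed. Evx1, a homeobox gene beyond Hoxa13, was at 36.2, 22.4 and 23.8 FPKM with high-fat diet, against 1.24, 1.24 and 0.472 FPKM with chow, and rose by 4.67 ± 0.41 on the log2 scale (edgeR adjusted p = 0.000228). Evx1 passed the filter only through the high-fat diet libraries, with means of 0.325 FPKM with berberine and 0.982 FPKM with chow. Evx1 and Hoxa13, close neighbours on the chromosome, thus changed in opposite directions. Skap2, a signalling adaptor at the other end of the Hoxa cluster, rose by 0.86 ± 0.15 (edgeR adjusted p = 0.0032). Ttll6, a tubulin-modifying enzyme beyond Hoxb13, was at 1.93, 3.35 and 3.18 FPKM with high-fat diet, against 14.5, 4.76 and 17.3 FPKM with chow, and fell by 2.20 ± 0.42 (edgeR adjusted p = 0.00535). With berberine against high-fat diet 1 of the 8 rose and 2 fell, where 30.7% of all genes changed. Evx1 fell by 6.28 ± 0.44 (edgeR adjusted p = 8.21e-05), with berberine values of 0.294, 0.326 and 0.354 FPKM, Skap2 fell by 0.73 ± 0.15 and Ttll6 rose by 1.71 ± 0.41 (edgeR adjusted p = 0.0067 and 0.0149). Evx2, the homeobox gene beyond Hoxd13, was at 1.99, 2.87 and 0.375 FPKM with berberine, 1.88, 4.51 and 4.65 FPKM with high-fat diet and 3.27, 0.124 and 2.75 FPKM with chow. Its 2 lowest libraries were those that were lowest for Hoxd13.

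Regulators and partners of Hox genes were counted from 2 further lists. Of 12 upstream regulators 8 were tested, and under high-fat diet 1 rose and 2 fell, again close to the 31.8% of all genes that changed. Cdx1 and Cdx2, the caudal homeobox genes of the intestine, fell by 1.35 ± 0.14 and 2.45 ± 0.41 on the log2 scale (edgeR adjusted p = 0.000401 and 0.00302). Cdx2 was at 16.0, 16.7 and 15.7 FPKM with high-fat diet, against 68.6, 124 and 47.2 FPKM with chow. Gdf11, a secreted ligand that in embryos promotes posterior Hox expression, was at 31.5, 13.9 and 11.1 FPKM with high-fat diet, against 1.68, 2.00 and 1.52 FPKM with chow, and rose by 3.31 ± 0.40 (edgeR adjusted p = 0.000706). With berberine against high-fat diet 2 of these 8 rose, Cdx1 and Cdx2, and 2 fell, Gdf11 and the retinoic acid receptor gene Rarg (log2 fold change -1.11 ± 0.21, edgeR adjusted p = 0.00555), where 30.7% of all genes changed. Of 9 genes for the TALE cofactors that bind DNA with Hox proteins 6 were tested. Under high-fat diet 2 of them fell and 0 rose, also close to that share. Pbx3 fell by 0.98 ± 0.22 (edgeR adjusted p = 0.0105), and with berberine against high-fat diet 0 of the 6 were called by edgeR or DESeq2, with 0 unadjusted p under 0.05. Between berberine and chow edgeR called 0 genes of the noncoding, flanking, regulator and cofactor lists. There, 0 noncoding, 1 flanking, 2 regulator and 3 cofactor genes had an unadjusted p under 0.05 in edgeR. The share of all genes under that threshold was not taken. DESeq2 called 0, 1, 0 and 1 genes in that order of lists, where it called 2.61% of all genes.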

How the data were processed

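Colon RNA was sequenced in 9 libraries, 3 per group. The authors deposited 1 table of estimated counts and FPKM per gene, per the file headers. The submitters' processing notes name, without roles, the GRCm38 build, StringTie 1.3.4d, HISAT2 2.0.4, cutadapt 1.9, edgeR, DESeq2 and UMI-tools. About 4 counts were taken to make 1 fragment, which could not be checked against reads. Of deposited counts from 1 to 7, 31.0% were exactly 4, and of those from 1 to 40, 34.9% were multiples of 4 (medians over libraries). Values listed at 0.0001 FPKM all had a count of 0 and were treated as 0. Totals ran from 51961764 to 69007117 estimated counts, and limits from a count of 0 cover counting error only.

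Groups were taken from the sample titles. The 39 Hox genes were found by symbol. Their membership and the 18 gene lists were chosen with earlier results of these data known. The 14506 genes that averaged 1 FPKM or more were tested on the estimated counts with edgeR 4.0.16 in R 4.3.3 (TMM scaling, quasi-likelihood, all 9 libraries, no covariate), with Benjamini-Hochberg adjustment over all of them and a threshold of 0.05. The SE is the log2 fold change divided by the square root of the F statistic. Sums and shares were not tested. Some genes counted in the totals are not reported here by name. Library values were printed for the called Hox genes, the 3 highest by mean, paralogue group 13 and, chosen after their values were seen, genes that set a library apart. Up to 4 called genes per list were named.

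Alternatives were DESeq2 1.42.0, limma 3.58.1 on log2(FPKM + 1) and log2(FPKM + 0.1), other scalings and filters, counts divided by 4, fits to 2 groups, a replicate block and each library left out. A fit without both chow replicate 2 and berberine replicate 3 was chosen after seeing the data. The fitting code was tested on simulated data for high-fat diet against chow. There, edgeR called 25% of 2-fold and 70% of 4-fold changes, with 3 false calls, so a gene not called may still have changed. Start-region sequences are from RefSeq (GRCm38.p6).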

Additional observations from a re-analysis of the deposited data

How the results depend on the processing

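Over 20 alternatives the calls of Hoxa3, Hoxa9 and Hoxa13 in high-fat diet against chow and in berberine against high-fat diet were kept, with edgeR, DESeq2 or limma adjusted p up to 0.0477. No called value changed sign. In high-fat diet against chow, leaving out 1 library at a time gave 1 Hox gene higher throughout and 4 to 6 lower, and leaving out chow replicate 2 and berberine replicate 3 together gave 3 lower, Hoxa3, Hoxa13 and Hoxb13. Hoxb5 lost its call in 8 of the 20 and Hoxb3 in 2. In berberine against high-fat diet, limma with either pseudocount, library totals only and the fit to only the 2 groups each gave 2 Hox genes lower in place of 1, the added gene being Hoxa10 or, in the fit to 2 groups, Hoxb7. Leaving out 1 library gave 2 to 4 higher and 1 to 2 lower there. In berberine against chow DESeq2 gave 1 lower, and leaving out 1 library gave 0. DESeq2 called 378 genes in that comparison and the other settings 1 to 8. In berberine against high-fat diet the count over all genes was 2960 without berberine replicate 2, against 4460 with it. The cause of these differences was not tested.

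Without division by length the share of paralogue groups 10 to 13 averaged 68.9% under high-fat diet, against 74.0% with it. Leaving out 1 library gave 73.5% to 78.4% with berberine, 72.6% to 75.8% with high-fat diet and 54.8% to 78.3% with chow. Dividing by the TMM factor put the Hoxb sum under high-fat diet at 134 FPKM, against 141 FPKM. Library totals moved the median log2 fold change of all genes to 0.13 in high-fat diet against chow and -0.12 in berberine against high-fat diet. limma moved it to 0.11 and 0.13 in high-fat diet against chow with a pseudocount of 1 and 0.1.

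Same-numbered libraries did not deviate together (correlations from -0.07 to 0.14 over the 3 comparisons), so the numbers were not taken as pairs. With the replicate block, high-fat diet against chow had 1 Hox gene higher and 4 lower, without Hoxb5 (edgeR adjusted p = 0.0772), berberine against high-fat diet 3 higher and 1 lower, and berberine against chow 0. Depth limits what can be said of the 16 untested Hox genes.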

Other observations

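Genes for Polycomb proteins, which keep unused Hox genes silent by marking histone H3, were read from a further list. Of 17 listed, H3K27 demethylases included, all were tested, and 6 rose and 2 fell in high-fat diet against chow, where 31.8% of all genes changed, with a median log2 fold change of 0.27, against 0.0015 over all genes. Ezh2, the main H3K27 methyltransferase of dividing cells, was at 10.3, 10.7 and 9.88 FPKM with high-fat diet, against 4.78, 4.28 and 3.28 FPKM with chow, and rose by 1.20 ± 0.16 on the log2 scale (edgeR adjusted p = 0.0012). Cbx2, a reader of that mark, was at 6.61, 5.46 and 5.35 FPKM with high-fat diet, against 1.91, 1.72 and 1.39 FPKM with chow, and rose by 1.67 ± 0.18 (edgeR adjusted p = 0.000464). Ezh1, the related methyltransferase of resting cells, fell by 0.80 ± 0.12 (edgeR adjusted p = 0.00209). In berberine against high-fat diet 2 of the 17 rose and 4 fell, where 30.7% of all genes changed. Ezh2 was at 4.02, 4.57 and 3.46 FPKM and Cbx2 at 2.04, 1.89 and 1.79 FPKM in the berberine libraries, both below every high-fat diet library. Between berberine and chow 0 of the 17 were called by edgeR or DESeq2, with 0 unadjusted p under 0.05.

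Markers of both ends of the colon differed between the groups. The proximal gene Cyp2c55 fell in high-fat diet against chow (log2 fold change -8.62, edgeR adjusted p = 0.000619), as did 2 of the 3 proximal genes in all, and so did the distal gene Insl5 (log2 fold change -3.46, edgeR adjusted p = 0.00151). DESeq2 called 1 of the 3 proximal genes. Among these, Osr2 passed the filter only through chow replicate 2, at 11.5 FPKM there and at or below 0.561 FPKM elsewhere. Insl5, a hormone of distal colon enteroendocrine cells, was at 93.1, 87.5 and 145 FPKM in the berberine libraries, 15.9, 8.36 and 4.98 FPKM in the high-fat diet libraries and 138, 52.4 and 108 FPKM in the chow libraries. Among the chow libraries replicate 2, with the lowest Hoxb13, was also the lowest for Insl5. Upk3a, a urothelial gene, was at 13.8, 7.96 and 12.1 FPKM in the high-fat diet libraries and had a count of 0 in the other 6. The urothelial gene Upk1a went the other way, at 3.93 to 4.88 FPKM with berberine, 1.19 to 1.60 FPKM with high-fat diet and 2.93 to 5.34 FPKM with chow, and fell in high-fat diet against chow (log2 fold change -1.79, edgeR adjusted p = 0.00342). Upk1b reached 0.353 FPKM with high-fat diet, against 0.561 FPKM or more with chow. Pbsn, a prostate gene, was at 16.6 FPKM in high-fat diet replicate 3. The 6 urogenital genes summed to between 4.37 and 5.68 FPKM with berberine, 9.77 and 30.7 FPKM with high-fat diet and 3.72 and 6.53 FPKM with chow, and the part of such cells in the Hox levels was not tested.

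When the filter was lowered to a mean of 0.1 FPKM, Hoxc4 was called higher in berberine than in high-fat diet (edgeR adjusted p = 0.0436), with 1 of the 3 high-fat diet libraries above 0. When every gene with a count was tested, Hoxc11 was called lower in high-fat diet than in chow. Hoxc11 entered that test only through the chow libraries, with counts of 27, 23 and 59 there and 0 in the other 6 libraries. With the filter at 0.1 FPKM Hoxd3 missed the threshold in high-fat diet against chow (log2 fold change -2.26, edgeR adjusted p = 0.0501).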
